A study of Mus musculus with 72 samples.

Results

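The unfolded protein response is the set of signals by which a cell adjusts its endoplasmic reticulum (ER) to the load of proteins to be folded. Its membrane sensors IRE1, PERK and ATF6 act through XBP1, ATF4 and cleaved ATF6, which drive genes for chaperones, folding enzymes and the degradation of misfolded proteins. Hepatocytes secrete most plasma proteins and carry a large ER, and they also hold CREBH, a membrane-bound factor of the same design that turns on acute phase and lipid genes. The 10 genes described here, of 20105 in the count table, were chosen by symbol. They comprise 4 transcription factors (Creb3l3, which encodes CREBH, Atf4, Xbp1 and Ddit3, which encodes CHOP), 5 chaperones and folding proteins (Hspa5, Hyou1, Pdia4, Sdf2l1 and Creld2) and Herpud1, a membrane protein of ER-associated degradation.

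RNA was measured in liver nuclei of 36 Hep-INTACT mice in 4 cohorts, in 2 fractions of each liver, which gave 72 libraries in 18 groups of 4. All mice, controls included, carried the alleles CAG-Sun1/sfGFP and Albumin-Cre, which put a tag on the nuclear envelope of cells in which the Albumin promoter has driven Cre, and bead-bound nuclei are called hepatocyte nuclei here as in the labels. The other library of each animal came from whole liver nuclei. In the C26 cohort (BALB/c), PBS animals were set against pre-cachexia and cachexia animals bearing C26 tumours, and in the 8025 cohort (C57BL/6N) PBS animals against cachexia animals bearing 8025 tumours. Cachexia animals were taken at a body weight loss of over 10%. The NC26 cohort (BALB/c) and the MC38 cohort (C57BL/6N) each held PBS animals and weight-stable animals with a tumour of that name. Livers were collected at zeitgeber time 9. Age and sex are not in the labels, nor is the time of the pre-cachexia group.

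Hepatocyte libraries held 8.49 to 56.4 M counts (median 26.1 M) and whole liver libraries 12.2 to 30.3 M (median 20.1 M). In PBS animals, all 10 endothelial, all 10 Kupffer cell and all 10 stellate cell markers tested were lower in hepatocyte than in whole liver nuclei. Their median log2 differences were -2.65, -2.66 and -2.46, while 1 of 8 hepatocyte markers was higher. Over all genes, 24.5% were called lower and 26.4% higher (adjusted p under 0.05). The 7 cholangiocyte markers were not depleted to that degree. Their summed level in C26 PBS animals had a median of 136 CPM (counts scaled to the library total) in hepatocyte and 149 CPM in whole liver nuclei. The PBS medians were 205 and 227 CPM in the 8025, 164 and 161 CPM in the NC26 and 213 and 232 CPM in the MC38 cohort. All 10 genes passed the filter on low counts in both fractions. Sdf2l1 was the thinnest, with 0 to 121 counts per library, and Ddit3 had 100 to 753. RNA of nuclei was counted over the whole gene with introns, so a value is a level of nuclear RNA, and neither the splicing of Xbp1 nor the translation of Atf4, the steps at which the pathway switches both on, was measured. Ddit3 overlaps Mars on the opposite strand by 68 bases and Herpud1 an antisense gene, Gm15890, by 473. Libraries were stranded, but the use of strand in counting is not given, so reads there may be shared between genes. Pdia4 holds Mir704 in the same direction. Coordinates in mm10 place Creb3l3 on chromosome 10 (81084333 to 81098872, minus strand), Ddit3 on chromosome 10 (127290793 to 127296288, plus strand), Xbp1 on chromosome 11 (5520641 to 5525993, plus strand) and Hspa5 on chromosome 2 (34772090 to 34776529, plus strand).

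The promoters of 3 of the genes are shown because they carry the ER stress response element, the site bound by ATF6 with NF-Y. Creb3l3, Atf4, Xbp1, Ddit3, Pdia4 and Sdf2l1 held no match to the motifs searched, and Hyou1 had no promoter window. Between animals Creld2 moved with Hspa5 (Pearson's r 0.92 in hepatocyte nuclei), and Herpud1 less closely (0.55). Pdia4 and Sdf2l1, without a match, also moved with Hspa5 (0.82 each). These values include C26 pre-cachexia animal 3, described below, which was high in Hspa5, Creld2, Pdia4 and Sdf2l1. The windows are RefSeq promoters of GRCm38.p6, on the genes' own strand, and capitals mark the motif matches. For Herpud1 the start of the window's transcript lies 71 bases before that of the counted gene, and distances are from the former. In Hspa5 (chr2:34771921-34772055, plus strand, from 169 to 35 bases before the start) the capitals are TGACGTG, the core of an element bound by ATF6 and XBP1, and both parts of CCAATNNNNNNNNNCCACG. In Creld2 (chr15:88819508-88819550, plus strand, 138 to 96 bases before the start) the same element lies on the opposite strand. In Herpud1 (chr8:94386305-94386399, plus strand, 124 to 30 bases before the start) the capitals are TTGCATCA, the reverse complement of TGATGCAA, a core bound by ATF4 with CHOP or C/EBP, and both parts of the second form of the element, ATTGGNCCACG.
Hspa5: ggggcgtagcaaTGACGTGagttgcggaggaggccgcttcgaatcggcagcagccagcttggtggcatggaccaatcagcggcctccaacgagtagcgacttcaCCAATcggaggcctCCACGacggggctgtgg
Creld2: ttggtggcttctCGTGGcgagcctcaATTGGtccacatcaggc
Herpud1: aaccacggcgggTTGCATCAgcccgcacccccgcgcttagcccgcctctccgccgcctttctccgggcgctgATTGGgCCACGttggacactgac
Over 32851 RefSeq windows of 250 bases before to 50 after a start, searched on both strands, 0.119% held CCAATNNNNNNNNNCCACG, 0.0365% held ATTGGNCCACG, 2.01% held TGACGTG and 0.895% held TGATGCAA. One form or the other of the stress response element was in 0.155% of all windows, in 3 of the 9 of these genes that had a window, and in 7 of 20 other genes for ER chaperones and folding, Calr, Canx and Hsp90b1 among them. A match describes letters in a window, not a bound site.

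Per length, the levels in hepatocyte nuclei of the 16 PBS animals spanned a wide range. Herpud1 was highest, at 25.5 ± 9.96 CPM per kb (CPM, the count scaled to the library total, divided by gene length; mean ± SD, n = 16 animals). Creb3l3 (13.7 ± 3.31), Atf4 (13.4 ± 3.07), Xbp1 (12.7 ± 3.83) and Hspa5 (12.4 ± 3.94) followed within 1 SD of each other. The large chaperone Hyou1 (3.84 ± 1.87), the disulfide isomerase Pdia4 (3.72 ± 1.41) and Ddit3 (2.99 ± 0.754) were lower and also within 1 SD. Creld2, a secreted folding factor, stood at 1.5 ± 1.45 CPM per kb and Sdf2l1, a partner of ER DnaJ proteins, at 0.327 ± 0.404.

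Creb3l3 and Ddit3 were lower in the livers of cachectic C26 animals, and the chaperones were not called in either direction. In hepatocyte nuclei 2 of the 10 genes passed the threshold (edgeR quasi-likelihood test, Benjamini-Hochberg adjusted p under 0.05), both lower, against 22.2% of all genes called in either direction and 10% called lower. Both were again called lower in whole liver nuclei, against 22.1% of all genes in either direction and 10.3% lower. Comparisons of pre-cachexia and cachexia share the 4 PBS animals of the C26 cohort.

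**Figure D1:**
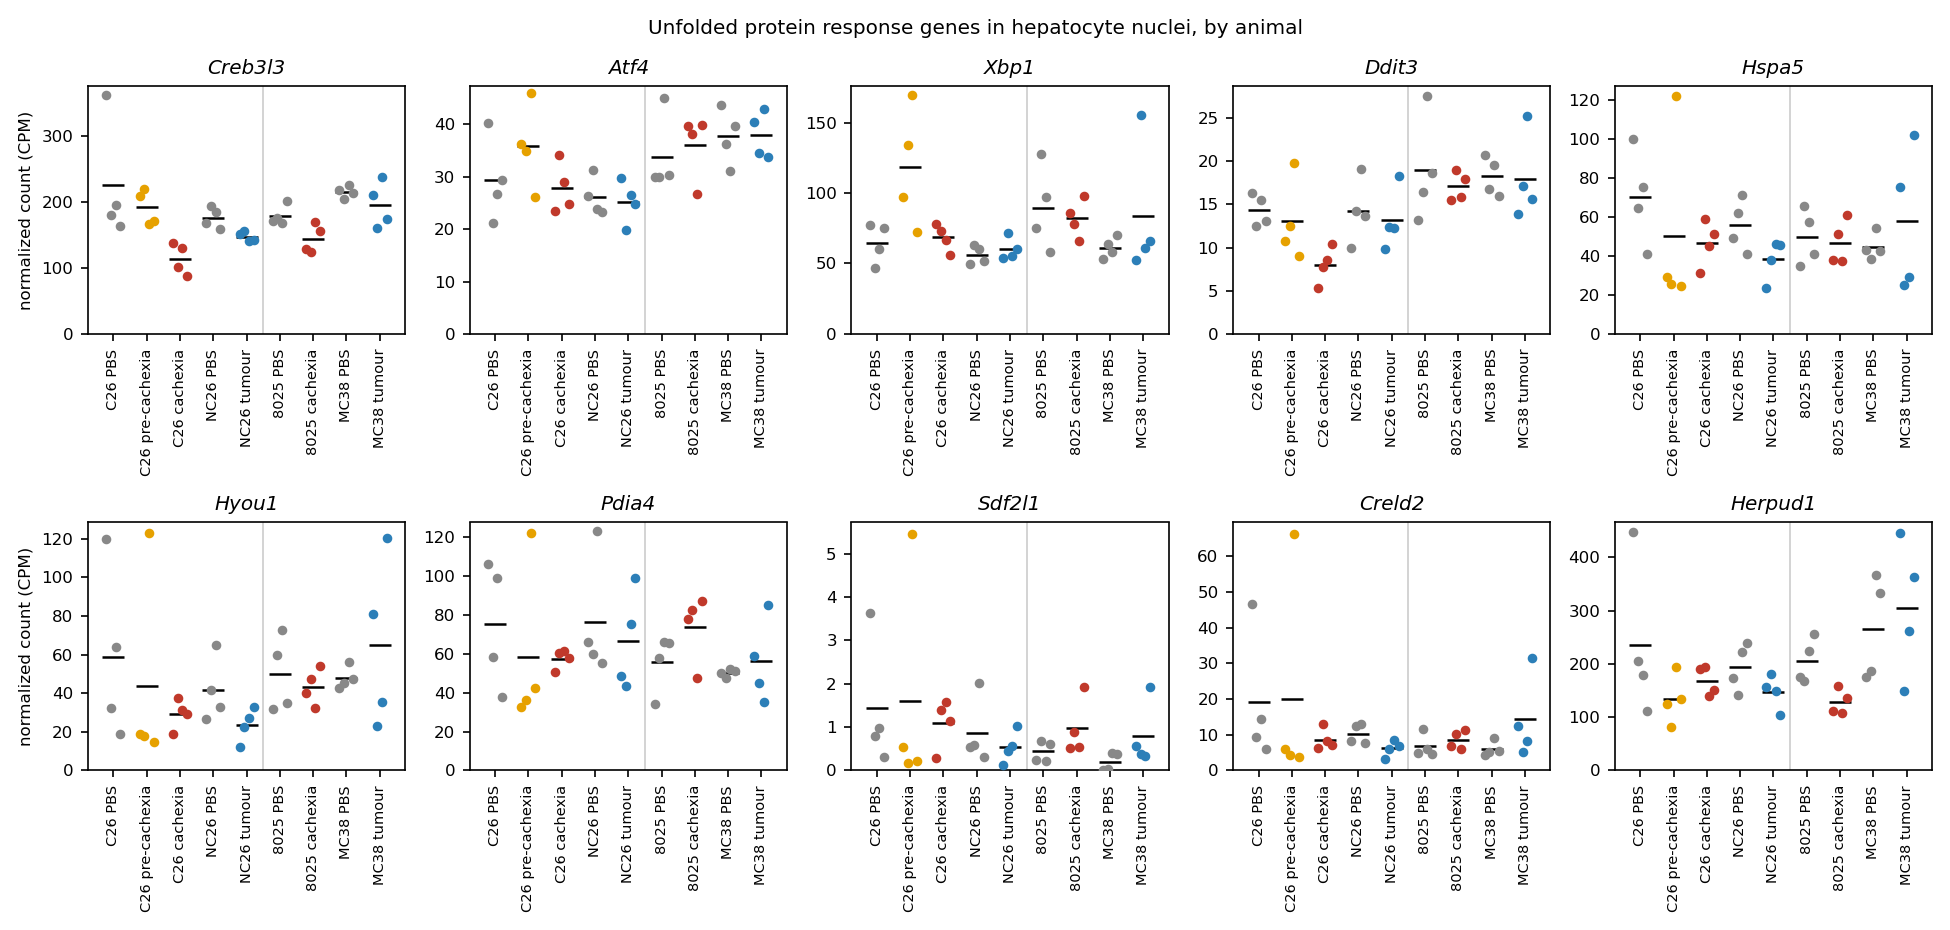
Level of each gene in hepatocyte nuclei (vertical axis, CPM from 0) in the 9 groups of 4 animals (BALB/c cohorts left of the grey line, C57BL/6N right); each point is an animal and each bar a group mean. Creb3l3 in cachectic C26 animals (87.3 to 138 CPM) lies below all 4 PBS animals of its cohort, and C26 pre-cachexia animal 3 stands high in Hspa5, Hyou1, Pdia4, Sdf2l1 and Creld2.

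In hepatocyte nuclei, Creb3l3 was at 363, 181, 196 and 164 CPM in PBS animals 1 to 4 of the C26 cohort, at 210, 221, 167 and 172 CPM in pre-cachexia animals and at 138, 102, 130 and 87.3 CPM in cachexia animals. Every cachexia animal lay below every PBS and every pre-cachexia animal, and PBS animal 1 lay far above its group. For this and all other cases of groups that do not overlap, the share over all genes was not counted. The level fell 1.98-fold from PBS to cachexia (log2 fold change -0.98, SE 0.18, adjusted p = 0.00015). It also fell from pre-cachexia to cachexia (-0.75, SE 0.18, adjusted p = 0.0059), where Creb3l3 was the 1 gene of the 10 called, against 9.09% of all genes in either direction and 4.27% lower. Between pre-cachexia and PBS the difference was -0.23 (95% interval -0.59 to 0.13) and was not called.

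The high value of PBS animal 1 belonged to the hepatocyte library alone. Its whole liver library read 153 CPM of Creb3l3, beside 140, 157 and 155 CPM in the other PBS animals. The hepatocyte library of animal 1 had 7.0% of its counts in genes that collect ribosomal RNA reads. Hepatocyte libraries of PBS animals 2 to 4 had 2.06, 3.51 and 2.27%. In whole liver libraries the share was 1.09% in animal 1 and 5.96, 5.003 and 7.33% in animals 2 to 4. The part of these reads in the high Creb3l3 value was not tested. Without PBS animal 1 the hepatocyte difference was -0.67 on the log2 scale and still called (adjusted p = 0.00096). Whole liver libraries of the cachexia animals read 89.2, 61.1, 85.2 and 73.9 CPM of Creb3l3, all below the PBS animals and the 4 pre-cachexia animals at 112, 164, 106 and 131 CPM. There the level fell by 0.97 on the log2 scale against PBS (SE 0.14, adjusted p = 6.8e-06) and by 0.73 against pre-cachexia (adjusted p = 0.00083), again the 1 gene called of the 10, against 11.6% of all genes and 6.94% lower. In bulk nuclei, fewer cells of a type and less RNA per cell cannot be told apart.

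Ddit3, the CHOP gene, which PERK and ATF4 induce under prolonged stress, fell in the same animals. In hepatocyte nuclei it was at 16.3, 12.5, 15.5 and 13.1 CPM in PBS animals and at 5.35, 7.74, 8.57 and 10.4 CPM in cachexia animals of the C26 cohort. The groups did not overlap, and pre-cachexia animals, at 10.7, 12.5, 19.8 and 9.06 CPM, spanned the gap. The log2 fold change of cachexia against PBS was -0.83 (SE 0.24, adjusted p = 0.013), and without cachexia animal 1, the lowest, it was -0.70 (adjusted p = 0.0502). Whole liver libraries gave 15.9, 11.6, 16.9 and 12.5 CPM in PBS and 5.20, 7.96, 6.56 and 8.40 CPM in cachexia animals, again apart, and the fold change was -1.02 on the log2 scale (SE 0.26, adjusted p = 0.0040). Against pre-cachexia the hepatocyte difference of -0.69 (95% interval -1.19 to -0.20) was not called by edgeR (adjusted p = 0.070). It was called by DESeq2, and by edgeR without pre-cachexia animal 4 (-0.84, adjusted p = 0.041) or without cachexia animal 4 (-0.87, adjusted p = 0.049).

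Atf4, the factor whose translation rises when eIF2 alpha is phosphorylated, was at 40.2, 21.2, 26.8 and 29.4 CPM in hepatocyte nuclei of PBS animals and at 23.5, 34.1, 28.9 and 24.8 CPM in cachexia animals of the C26 cohort. The groups lay over each other, and the difference of -0.08 had an interval of -0.45 to 0.30. Xbp1, the substrate of IRE1, was at 77.3, 46.5, 60.4 and 75.1 CPM in PBS animals, 97.5, 134, 170 and 72.2 CPM in pre-cachexia animals and 78.1, 73.2, 66.4 and 56.0 CPM in cachexia animals. Pre-cachexia animals 1 to 3 lay above every PBS and cachexia animal, and animal 4 lay among them. Xbp1 was higher in pre-cachexia than in PBS (log2 fold change 0.87, SE 0.27, adjusted p = 0.039), the 1 gene of the 10 called, against 7.72% of all genes in either direction and 4.78% higher. That call was lost in 7 of the 13 alternatives run, at 0.73 without PBS animal 2 (adjusted p = 0.14), 0.82 without PBS animal 3 (0.11), 0.94 without PBS animal 4 (0.056), 0.94 without pre-cachexia animal 1 (0.067), 0.80 without animal 2 (0.0995), 0.64 without animal 3 (0.12) and 0.85 in a fit of the compared groups only (0.13). Whole liver libraries of the 4 pre-cachexia animals were at 77.1, 110, 126 and 55.6 CPM and those of PBS animals at 58.7, 47.3, 57.8 and 65.6 CPM, and the difference of 0.69 was not called (adjusted p = 0.068). None of the 10 was called in that comparison, against 12.8% of all genes, with 2 at an unadjusted p under 0.05 (Xbp1 and Herpud1) by edgeR and none by DESeq2. Without pre-cachexia animal 4 Xbp1 was called at 0.87 (adjusted p = 0.030). Xbp1 in cachexia against PBS differed by 0.08 in hepatocyte nuclei (interval -0.46 to 0.62), and against pre-cachexia by -0.79 (adjusted p = 0.056), which passed the threshold without pre-cachexia animal 1 (-0.89, adjusted p = 0.049) or 4 (-0.97, adjusted p = 0.025).

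Hspa5 encodes BiP, the main chaperone of the ER, which also holds the sensors inactive. In hepatocyte nuclei of the C26 cohort it was at 100, 64.8, 75.2 and 41.0 CPM in PBS animals, at 29.2, 25.9, 122 and 24.6 CPM in pre-cachexia animals and at 31.1, 59.1, 44.9 and 51.4 CPM in cachexia animals. Pre-cachexia animals 1, 2 and 4 lay below all 4 PBS animals and animal 3 lay above them. Creld2 showed the same split, at 5.97, 4.37, 66.3 and 3.74 CPM against 46.7, 9.36, 14.5 and 5.98 CPM in PBS animals. Hyou1, at 18.9, 17.9, 123 and 14.8 CPM, and Pdia4, at 32.7, 36.2, 122 and 42.3 CPM, had animal 3 highest as well. Hyou1 read 120, 32.2, 64.0 and 19.1 CPM in the PBS animals and Pdia4 106, 58.4, 98.9 and 38 CPM. Sdf2l1 was at 5.45 CPM in pre-cachexia animal 3 and at 0.183 to 0.535 CPM in the other 3.

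With all 4 pre-cachexia animals none of these 5 genes was called against PBS: the difference of Hspa5 was -0.48 (interval -1.32 to 0.36) and that of Creld2 was 0.06 (interval -1.28 to 1.40). Without pre-cachexia animal 3, a fit that left out that library only, 5 of the 10 genes were called lower in hepatocyte nuclei, beside 692 of 13414 genes, and Xbp1 was not called. These were Hspa5 (log2 fold change -1.41, adjusted p = 0.013), Hyou1 (-1.77, adjusted p = 0.020), Pdia4 (-1.02, adjusted p = 0.042), Creld2 (-2.03, adjusted p = 0.019) and Herpud1 (-1.06, adjusted p = 0.049). The same 5 were called lower in whole liver nuclei without that animal, at -0.92 (Pdia4) to -1.68 (Creld2) on the log2 scale, beside 1024 of 13855 genes. Leaving out any other single animal gave at most 1 call among the 10 in these comparisons. The library of animal 3 had 3.43% of its counts (hepatocyte nuclei) and 4.41% (whole liver nuclei) in genes that collect ribosomal RNA reads, within the range of all libraries (1.04 to 7.0% and 0.944 to 8.31%). The part of that animal's RNA quality in the result was not tested.

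In cachexia against PBS of the C26 cohort the chaperones' intervals were wide. Differences in hepatocyte nuclei were -0.59 for Hspa5 (interval -1.44 to 0.25), -1.01 for Hyou1 (-2.13 to 0.11), -0.39 for Pdia4 (-1.12 to 0.34), -0.36 for Sdf2l1 (-2.11 to 1.39) and -1.14 for Creld2 (-2.50 to 0.23). Each of the 5 intervals reached below -1. Herpud1 was at 447, 205, 179 and 112 CPM in PBS animals, at 125, 81.8, 193 and 134 CPM in pre-cachexia animals and at 191, 194, 140 and 150 CPM in cachexia animals. It differed by -0.48 in cachexia (interval -1.15 to 0.18) and by -0.82 in pre-cachexia (interval -1.49 to -0.15, adjusted p = 0.12).

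**Figure D2:**
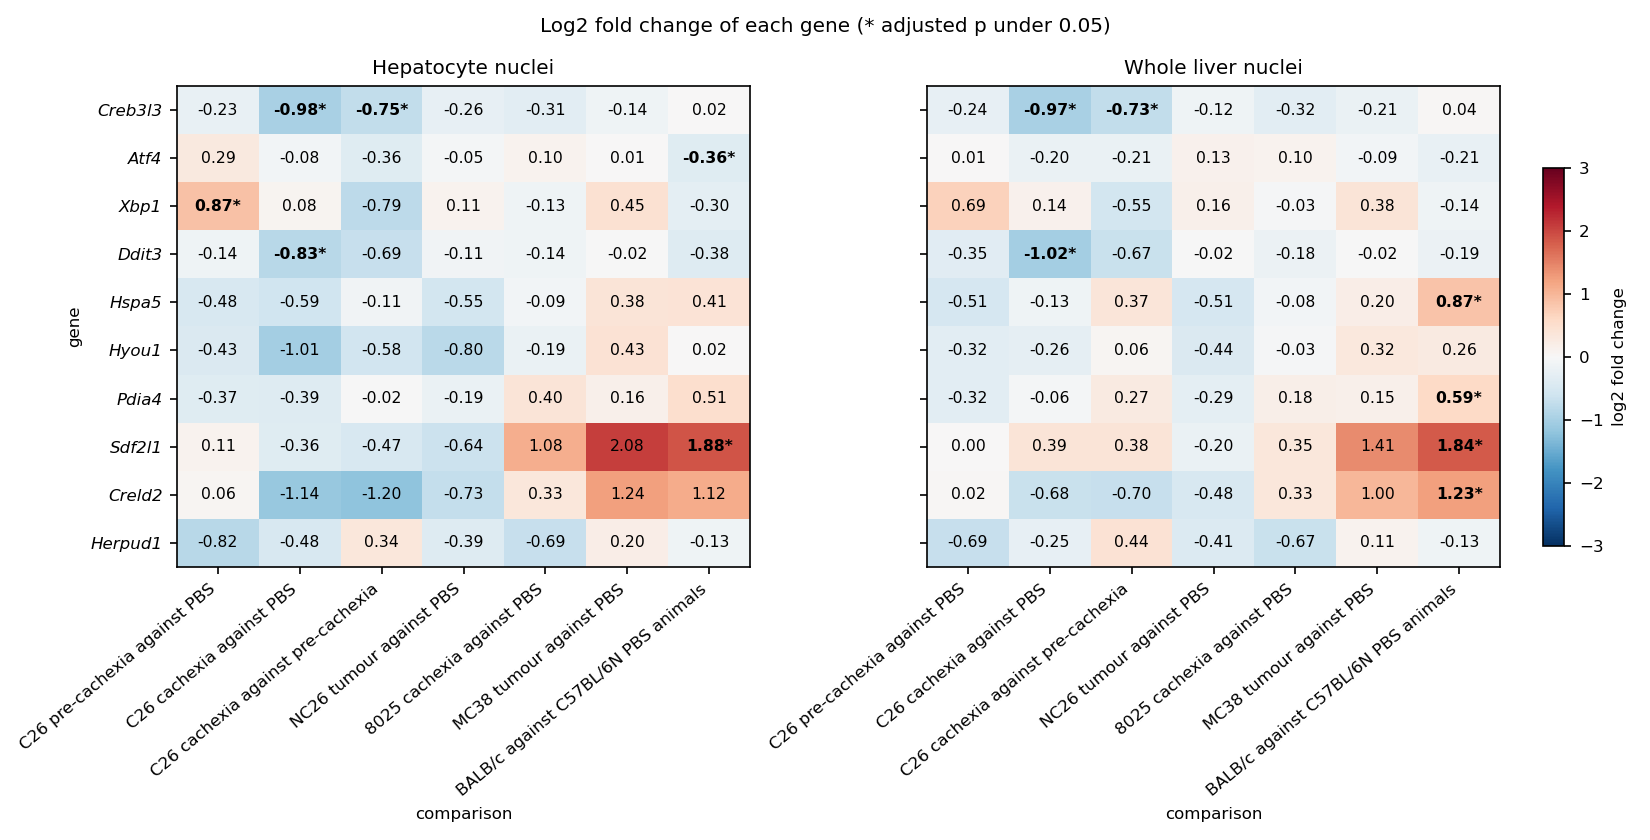
Log2 fold change of each gene (rows) in 7 comparisons (columns), in hepatocyte nuclei on the left and whole liver nuclei on the right; red is higher and blue lower in the group named first, and an asterisk marks an adjusted p under 0.05. Creb3l3 and Ddit3 are called lower in C26 cachexia against PBS in both fractions (-0.98 and -0.83 in hepatocyte nuclei), and the columns of 8025, NC26 and MC38 hold no asterisk.

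In cachectic 8025 animals none of the 10 genes passed the threshold, while 29.3% of all genes did so in hepatocyte and 36.6% in whole liver nuclei. By edgeR, 1 of the 10 had an unadjusted p under 0.05 in hepatocyte nuclei (Herpud1) and 2 in whole liver nuclei (Creb3l3 and Herpud1), and DESeq2 called none in either. Creb3l3 in hepatocyte nuclei was at 171, 175, 169 and 201 CPM in PBS animals and at 129, 124, 169 and 156 CPM in cachexia animals, which met at 169 CPM. Its difference was -0.31 (interval -0.67 to 0.05, adjusted p = 0.19). Whole liver libraries gave 106, 148, 145 and 150 CPM against 103, 100, 113 and 123 CPM, a difference of -0.32 (interval -0.61 to -0.04, adjusted p = 0.071), and without PBS animal 1, the lowest of its group, it was called at -0.43 (adjusted p = 0.020).

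Herpud1 stood apart between the 8025 groups, at 176, 169, 225 and 256 CPM in PBS animals and 111, 158, 107 and 135 CPM in cachexia animals. The difference of -0.69 (interval -1.36 to -0.02) had an adjusted p of 0.11, and in a fit of these 8 libraries alone it was called (-0.68, adjusted p = 0.020). The whole liver difference was -0.67 (adjusted p = 0.067), called in the fit of the compared groups only (-0.66, adjusted p = 0.044) and without PBS animal 1 (-0.82, adjusted p = 0.040). The other members differed by between -0.19 (Hyou1) and 1.08 (Sdf2l1, interval -0.91 to 3.07). Ddit3 was at 13.2, 16.4, 27.6 and 18.6 CPM in PBS animals and 15.5, 19.0, 15.8 and 17.9 CPM in cachexia animals, a difference of -0.14 with an interval of -0.63 to 0.35. Atf4 differed by 0.10 (interval -0.28 to 0.48).

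With weight-stable tumours none of the 10 was called in either fraction. In hepatocyte nuclei 0.324% of all genes were called in NC26 animals and 0% in MC38 animals (edgeR; 572 genes at an unadjusted p under 0.05, and 6 called by DESeq2), and no member had an unadjusted p under 0.05 or was called by DESeq2. The shares in whole liver nuclei were 0.728% and 0% (for MC38, 790 genes at an unadjusted p under 0.05 and 14 called by DESeq2), with 0 members for NC26 and 1, Sdf2l1, for MC38 at an unadjusted p under 0.05, and none by DESeq2. Creb3l3 in hepatocyte nuclei was at 168, 194, 185 and 160 CPM in PBS and 151, 156, 141 and 143 CPM in NC26 tumour animals. These groups did not overlap, which was not counted over all genes. The difference of -0.26 (interval -0.62 to 0.10) was not called. In MC38 animals it was at 219, 205, 226 and 214 CPM against 211, 161, 238 and 175 CPM.

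Within the MC38 tumour group the chaperones split by animal. Hspa5 was at 75.6, 25.1, 29.4 and 102 CPM in tumour animals 1 to 4, beside 43.1, 38.4, 54.4 and 42.4 CPM in the PBS animals. Creld2 followed with 12.5, 5.13, 8.14 and 31.4 CPM and Hyou1 with 80.9, 22.9, 35.3 and 120 CPM, so animals 1 and 4 were high in all 3 genes. The differences of Creld2 (1.24, interval -0.15 to 2.62) and Sdf2l1 (2.08, interval -0.07 to 4.24) were not called. Xbp1 was high in another animal, 2, at 155 CPM, beside 52.2, 60.9 and 65.9 CPM.

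The effect of cachexia with C26 was set against the other effects by contrasts in the same fit. The Creb3l3 change in whole liver nuclei with C26 was lower than that with the NC26 tumour by 0.85 on the log2 scale (-0.85, SE 0.20, adjusted p = 0.013), 1 of 10 called against 3.4% of all genes in either direction and 1.73% lower. Against the 8025 effect it was -0.65 (interval -1.05 to -0.24, adjusted p = 0.043), 1 of 10 called against 6.57% and 4.6% lower, and this call was lost in 11 of 21 alternatives. Among them, without 8025 PBS animal 1 the value was -0.54 (adjusted p = 0.0998), without C26 cachexia animal 2 it was -0.55 (adjusted p = 0.11), and in the other 6 fits that left out an animal and lost the call (C26 PBS animals 1, 3 and 4, C26 cachexia animal 4, and 8025 cachexia animals 3 and 4) it ranged from -0.60 to -0.64. In hepatocyte nuclei the same contrasts gave -0.73 (interval -1.23 to -0.22, adjusted p = 0.13) and -0.67 (interval -1.18 to -0.17, adjusted p = 0.20). No member was called there (1.89% and 0.957% of all genes were), with 2 (Creb3l3 and Ddit3) and 1 (Creb3l3) at an unadjusted p under 0.05 by edgeR and none by DESeq2. The 8025 and MC38 effects differed in no member, at 0 with an unadjusted p under 0.05 and 0 by DESeq2 in either fraction, against 7.21% and 13.5% of all genes. Library numbers run in 1 series for the C26 and 8025 cohorts and in another for NC26 and MC38. In the contrasts of C26 with NC26 and of 8025 with MC38 the tumour and the library series thus cannot be told apart. The C26 cohort is BALB/c and the 8025 cohort C57BL/6N. In the contrast of C26 with 8025, tumour and strain cannot be told apart.

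Marker genes of other cell types differed between groups in the same libraries. The summed level of 10 Kupffer cell markers in hepatocyte nuclei was 41.8 to 69.1 CPM in C26 PBS animals, 75.0 to 93.2 CPM in pre-cachexia and 70.4 to 107 CPM in cachexia, with 7 and 6 of the 10 called higher, against 4.78% and 12.2% of all genes. In the 8025 cohort it was 41.4 to 49.5 CPM in PBS and 109 to 144 CPM in cachexia, with 9 of 10 higher, against 16.2% of all genes. Monocyte and neutrophil markers summed to 1.11 to 2.33 CPM in C26 PBS and 2.27 to 4.39 CPM in cachexia animals, and to 0.969 to 1.82 CPM and 10.9 to 15.1 CPM in the 8025 cohort. Of the 9 monocyte and neutrophil markers, S100a8, S100a9 and Mpo were at 0 in all C26 PBS hepatocyte libraries, and the others were not. Animals with the weight-stable NC26 tumour also differed from their PBS animals without overlap: Kupffer cell markers in whole liver nuclei summed to 269 to 314 CPM in NC26 PBS and 380 to 453 CPM in NC26 tumour animals (3 of 10 higher, 0.706% of all genes), and monocyte and neutrophil markers in hepatocyte nuclei to 0.569 to 1.40 and 1.42 to 2.27 CPM. The 10 endothelial markers in hepatocyte nuclei summed to 177 to 311 CPM in C26 PBS and 275 to 395 CPM in cachexia (1 higher), and to 121 to 189 and 194 to 284 CPM in the 8025 cohort (2 higher). The 8 hepatocyte markers summed to 11164 to 15397 CPM in C26 PBS, 9413 to 10234 CPM in pre-cachexia and 15860 to 25791 CPM in cachexia, with no overlap between groups, and to 12339 to 13171 and 10381 to 14259 CPM in 8025 PBS and cachexia animals. The part of these cells in the results was not tested.

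Between strains, 4 of the 10 genes were higher in whole liver nuclei of the 8 BALB/c PBS animals than of the 8 C57BL/6N PBS animals, against 39.6% of all genes called and 18.2% called higher. Strain is here a comparison of cohorts. Creld2 was at 24.4, 7.57, 13.7 and 7.80 CPM in C26 and 9.12, 11.3, 16.7 and 7.63 CPM in NC26 PBS animals, and at 3.20, 7.41, 5.34 and 3.60 CPM in 8025 and 4.53, 4.62, 6.95 and 6.26 CPM in MC38 PBS animals. The lowest BALB/c animal was above the highest C57BL/6N animal, and the log2 difference was 1.23 (interval 0.38 to 2.08, adjusted p = 0.019). Hspa5 was at 84.6 ± 31 against 45.6 ± 10 CPM (SD, n = 8 each; 0.87, adjusted p = 0.0082), Pdia4 differed by 0.59 (adjusted p = 0.047) and Sdf2l1 by 1.84 (adjusted p = 0.0013). In hepatocyte nuclei 2 were called, against 41.2% of all genes: Sdf2l1 was higher in BALB/c by 1.88 (interval 0.42 to 3.34, adjusted p = 0.035), and Atf4 was lower by 0.36 on the log2 scale (-0.36, interval -0.63 to -0.09, adjusted p = 0.027). Creld2 (1.12, adjusted p = 0.063) was called there by DESeq2. Hspa5 in hepatocyte nuclei differed by 0.41, with an interval of -0.18 to 1.01.

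Between the fractions of the same PBS animals, 3 of the 10 genes were higher in hepatocyte than in whole liver nuclei, against 50.9% of all genes called and 26.4% called higher. This fit took all 72 libraries as independent and did not use the pairing by animal. Creb3l3 was at 208 ± 54 CPM in hepatocyte and 154 ± 24 CPM in whole liver nuclei (SD, n = 16), higher in 15 of 16 animals (log2 difference 0.43, interval 0.27 to 0.59, adjusted p = 1.0e-05). Atf4 was higher by 0.27 (adjusted p = 0.011, 14 of 16 animals) and Herpud1 by 0.38 (adjusted p = 0.038, 16 of 16 animals). With the animal as a block, which the shared liver of both libraries allows, 8 of the 10 were called, all higher in hepatocyte nuclei, against 69.6% of all genes called in either direction under that block, and Hspa5 (higher in 8 of 16 animals) and Sdf2l1 (5 of 16) were not. The change with cachexia differed between fractions in no member for C26 or 8025, with none at an unadjusted p under 0.05 and none called by DESeq2 or with the animal block, against 0% and 0.0427% of all genes by edgeR (295 and 522 genes at an unadjusted p under 0.05; DESeq2 called 1 and 14). For Creb3l3 that difference, in the fit without the animal block, was -0.03 (interval -0.49 to 0.44) with C26 and 0.04 (interval -0.42 to 0.50) with 8025.

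The chaperones were among the genes that differed most between animals of the same group. On the log2 scale the spread within groups in hepatocyte nuclei was an SD of 0.95 for Creld2, 0.81 for Hyou1 and 0.61 for Hspa5, beside a median of 0.25 over 9076 genes of at least 5 CPM. These were at the 98.9th, 98.0th and 95th percentile of those genes, with Pdia4 at 92.5 and Herpud1 at 90.7. The spreads include C26 pre-cachexia animal 3, far above its group in Creld2, Hyou1, Hspa5 and Pdia4, and were not computed without it. The transcription factors varied less, Xbp1 at the 81.0th percentile, Ddit3 at 75.5, Atf4 at 57.3 and Creb3l3, with an SD of 0.25, at 50.6.

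**Figure D3:**
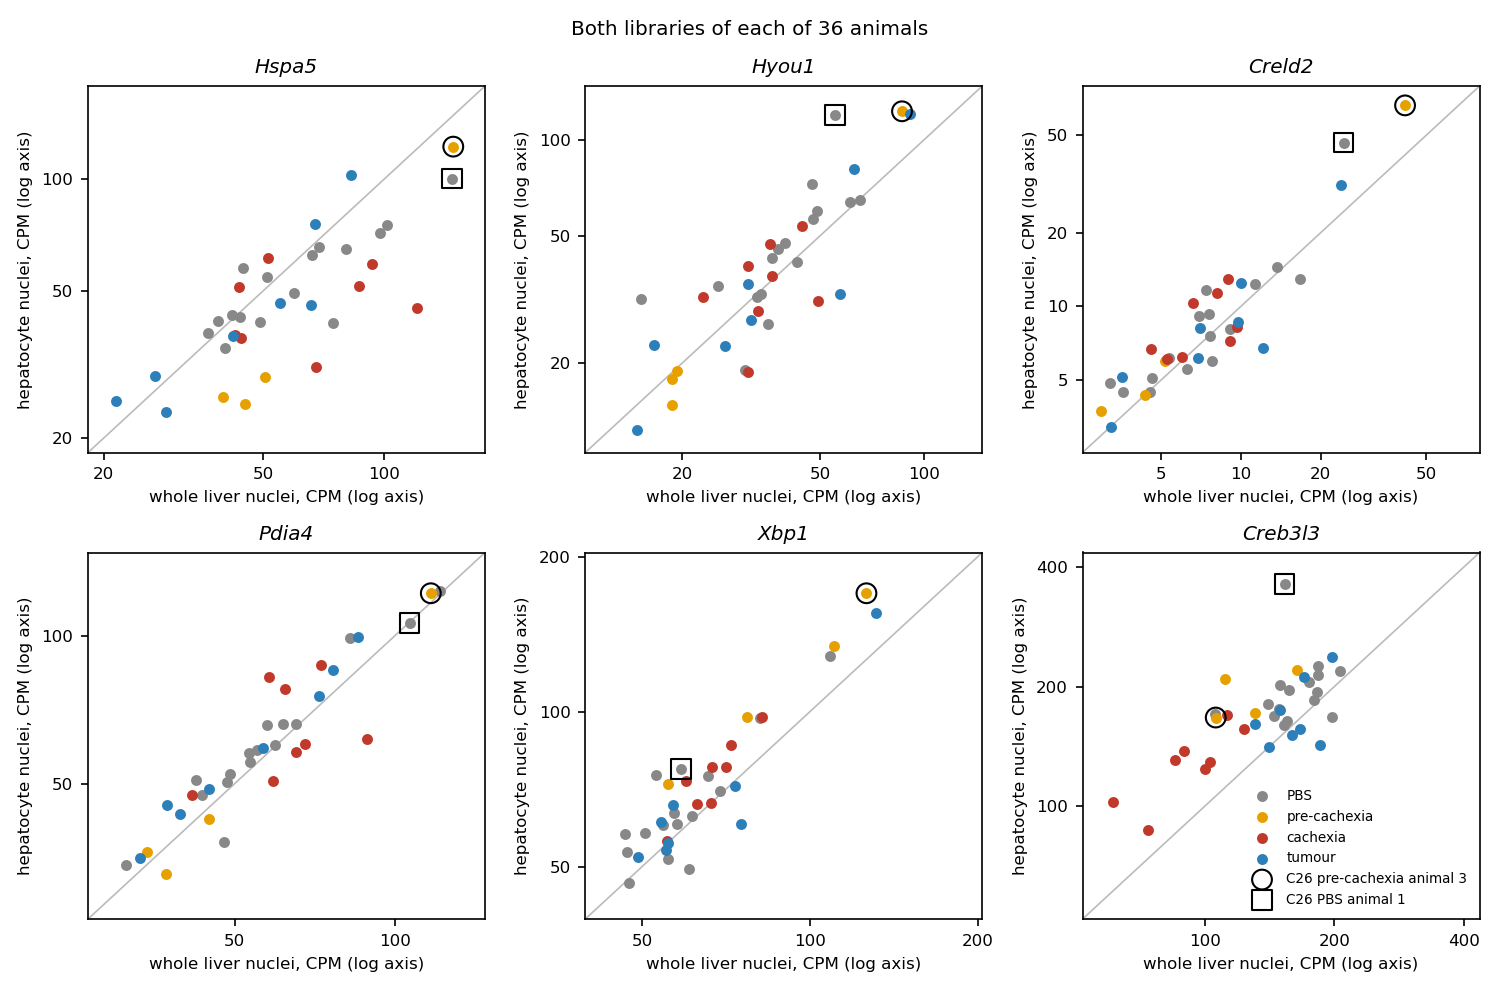
Level of 6 of the genes in the whole liver library (horizontal, CPM, log axis) and the hepatocyte library (vertical, CPM, log axis) of each of 36 animals, coloured by arm, with the line of equal values; the circle marks C26 pre-cachexia animal 3 and the square C26 PBS animal 1. The circled animal is at the top right for Hspa5 and Creld2. For Pdia4 it lies just below NC26 PBS animal 3 in both libraries. For Creb3l3 the square lies far above the line (363 against 153 CPM).

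For 8 of the 10 genes an animal's deviation was more alike in its 2 libraries, which share the liver, than for the median gene. Over 36 animals, the correlation of deviations between hepatocyte and whole liver libraries was 0.97 for Pdia4, 0.95 for Creld2, 0.94 for Xbp1 and Herpud1, 0.93 for Hspa5, 0.91 for Hyou1 and Ddit3, and 0.63 for Sdf2l1. It was 0.51 for Atf4 and 0.47 for Creb3l3, and the median over 13158 genes was 0.56. In pre-cachexia animal 3, Hspa5 read 122 CPM in the hepatocyte and 149 CPM in the whole liver library, and Creld2 66.3 and 41.6 CPM, so the animal was the highest of its group in both.

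**Figure D4:**
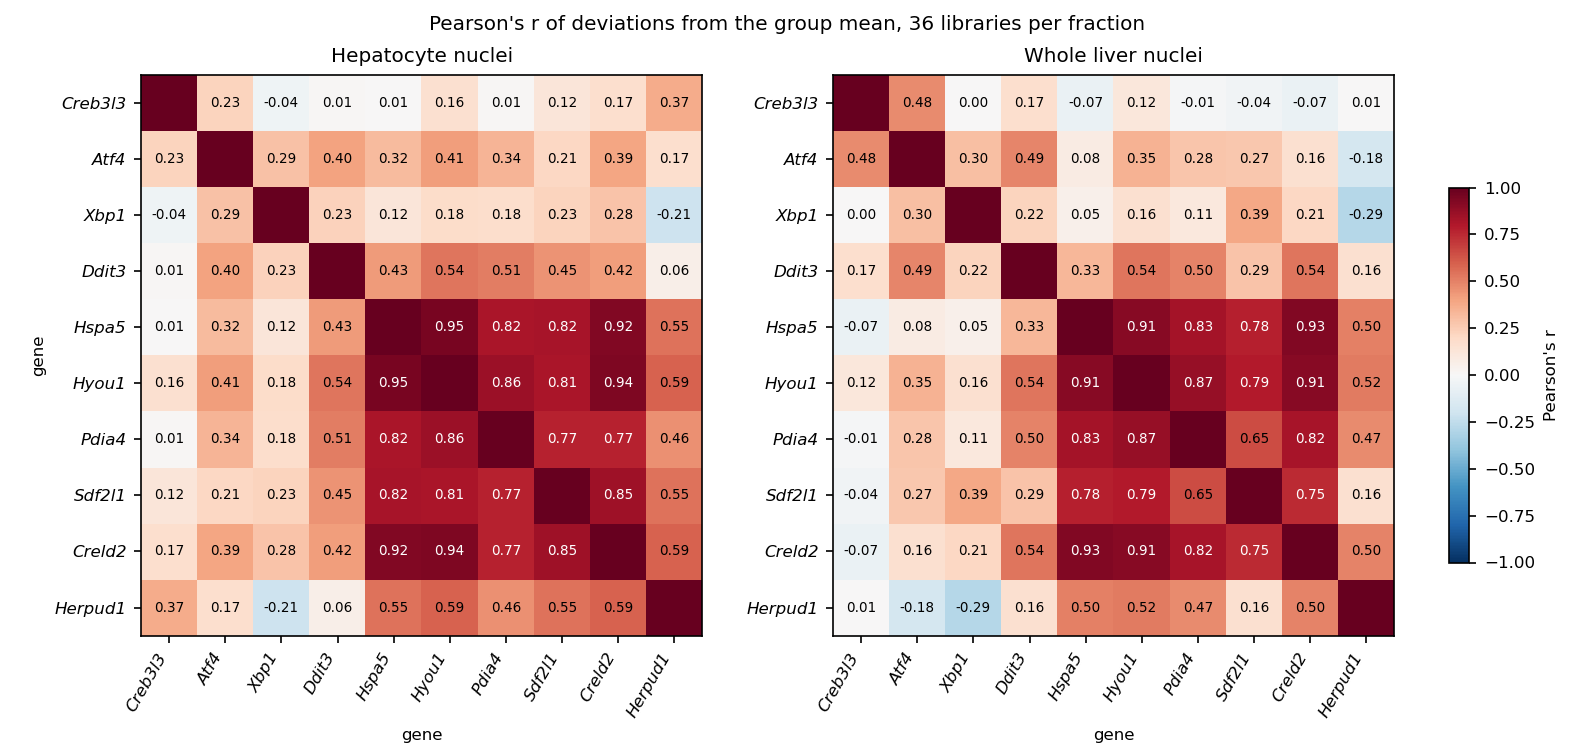
Pearson's r between the deviations of each pair of the 10 genes from their group means, over 36 hepatocyte libraries on the left and 36 whole liver libraries on the right; colour runs from -1 (blue) to 1 (red). Hspa5, Hyou1, Pdia4, Sdf2l1 and Creld2 form a block (Hspa5 with Hyou1 at 0.95 in hepatocyte nuclei), and Xbp1 (0.12 with Hspa5) and Creb3l3 stand outside it. Both panels include C26 pre-cachexia animal 3.

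Across animals the chaperones varied together, and less so with the transcription factors. The correlations here are over 36 libraries, after removal of group means, and the points share library depth and scaling. They include C26 pre-cachexia animal 3, far above its group in Hspa5, Hyou1, Pdia4, Sdf2l1 and Creld2. No correlation was computed without that animal. In hepatocyte nuclei Hspa5 ran with Hyou1 at r = 0.95, with Creld2 at 0.92, and with Pdia4 and Sdf2l1 at 0.82, and Hyou1 with Creld2 at 0.94. Herpud1 (0.55) and Ddit3 (0.43) were less close to Hspa5, and Xbp1 was at 0.12. Xbp1 and Herpud1 were at -0.21 in hepatocyte and -0.29 in whole liver nuclei. Creb3l3 correlated with the others at -0.04 to 0.37. Whole liver libraries put Hspa5 at 0.93 with Creld2 and 0.91 with Hyou1.

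The same measure, taken over other lists of the pathway and with C26 pre-cachexia animal 3 included, placed a wider set of ER genes beside Hspa5. Of 22 other genes for ER chaperones and folding, 12 (54.5%) had r over 0.7 with Hspa5 in hepatocyte nuclei. Calr (0.98), Manf (0.96) and Hsp90b1 (0.90) were among them, named after their values were seen. For 11 of 20 genes for protein entry into the ER (55%) r was over 0.7 too, with Sec61b at 0.92. In degradation it was 6 of 17 and in ER to Golgi transport 6 of 19. Of 29 targets of ATF4 and CHOP it was 2, of 14 targets of CREBH 0 and of 11 heat shock genes 0, and over all genes 232 of 13273 (1.75%).

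The genes whose pattern was most like a member's were taken from 8820 candidates, by Pearson's r over 36 hepatocyte libraries of log2 CPM minus the mean of the PBS animals of the same cohort. For Hspa5, with C26 pre-cachexia animal 3 included, these were Manf (0.97), Dnajb11 (0.96), Hyou1 and Slc35b1 (0.95 each) and Calr (0.94). For Creb3l3 they were Ech1 (0.88), Stbd1 and Abcb6 (0.81 each) and Tor1a and Acot8 (0.80 each). These values include the high library of C26 PBS animal 1. In whole liver libraries Stbd1 (0.84) was at rank 2 for Creb3l3, and Ech1, Abcb6, Tor1a and Acot8 were not among the top 20. For Atf4 they were Ptbp1 (0.77), Elovl1 (0.74), Dus3l (0.71), and Srf and Plxnb2 (0.70 each).

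**Figure D5:**
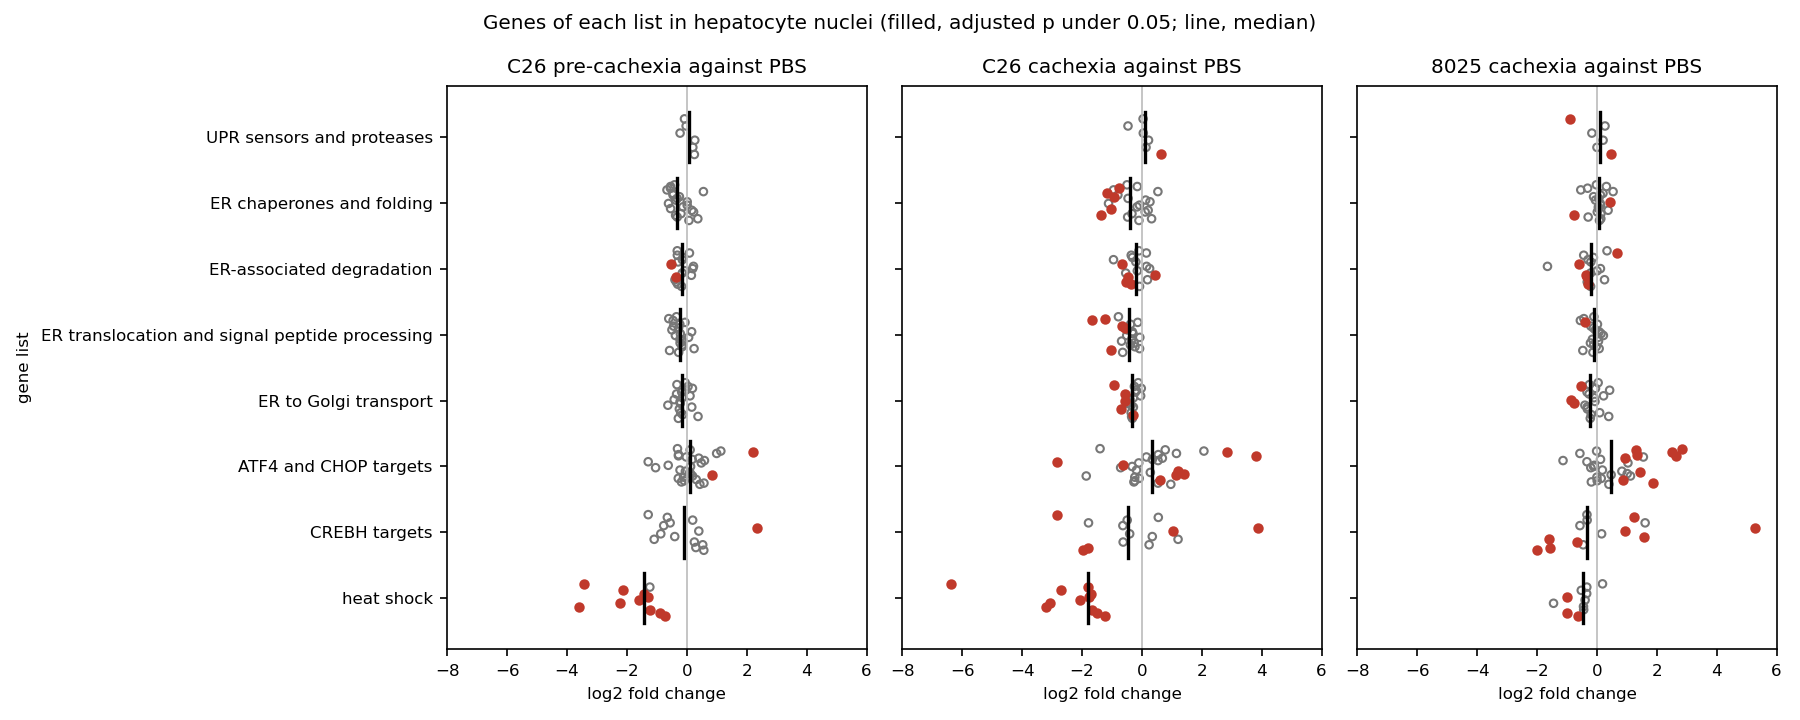
Log2 fold change (horizontal) of the tested genes of 8 lists (rows) in hepatocyte nuclei, for 3 comparisons against PBS; each point is a gene, filled red where called, and the black line is the list median. In C26 cachexia the called genes for ER chaperones and folding all lie left of 0, and the heat shock list has a median of -1.79.

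The rest of the pathway was read from lists in the same fits, and the members with the smallest p are given with values. Of 6 sensors and proteases, 1 was called higher in C26 cachexia in hepatocyte nuclei, Mbtps2, which encodes a protease that releases ATF6 and CREBH (0.63, adjusted p = 0.0030). In 8025 cachexia Mbtps2 was higher (0.49, adjusted p = 0.015) and Ern1, which encodes IRE1, was lower (-0.90, adjusted p = 0.00051). Over all genes, 12.2% were called higher and 10% lower in C26 cachexia in hepatocyte nuclei, and 16.2% and 13.1% in 8025 cachexia. The counts below stand beside these shares, which are of the fit with every animal. They are not the shares of fits that left out an animal. Of 22 genes for ER chaperones and folding, 0 were higher and 5 lower in C26 cachexia (list median -0.40). The 5 were Txndc5, a thioredoxin-like folding enzyme (-1.35, adjusted p = 4.1e-06), Canx, the lectin chaperone calnexin (-0.78, adjusted p = 0.018), Ero1lb, Pdia6 and Dnajb9, and without C26 PBS animal 1 the count was 1 higher and 3 lower. In 8025 cachexia Dnajc10 was higher (0.43, adjusted p = 0.025) and Txndc5 lower (-0.76, adjusted p = 0.0024), with a list median of 0.07. The median over all genes was 0.00 with C26 and -0.02 with 8025.

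Genes for entry into the ER, for degradation and for transport were mostly not called. Of 20 genes for entry, 0 were higher and 5 lower in C26 cachexia (median -0.44), with the translocon subunits Sec61g (-1.65, adjusted p = 0.0035) and Sec61b (-1.23, adjusted p = 0.0080) first. Without C26 pre-cachexia animal 3, whose group only shares the fit, 9 were lower, and the 10% of all genes above is not of that fit. With 8025 the count was 0 higher and 1 lower, Sec62, under the 13.1% of all genes. Of 17 degradation genes 1 was higher and 4 lower with C26 (median -0.20), among the latter Ube2j1 (-0.48, adjusted p = 0.0015) and Derl2 (-0.68, adjusted p = 0.0023). With 8025 it was also 1 and 4 (median -0.21), with Derl2 at -0.61 and Ube2j1 at -0.35. Of 19 genes for ER to Golgi transport 0 were higher and 5 lower with C26, Kdelr2, which returns chaperones to the ER, first (-0.71, adjusted p = 0.00018). With 8025 it was 0 and 3, and 5 lower without C26 PBS animal 1, which only shares the fit.

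In pre-cachexia, where 4.78% of all genes were called higher and 2.94% lower, 0 of the 22 chaperones were called by edgeR (1 higher and 2 lower at an unadjusted p under 0.05; median -0.32; DESeq2 counts were made for the 10 genes only), and without animal 3 there were 7 lower. Of genes for entry into the ER 0 of 20 were called (0 at an unadjusted p under 0.05), and 8 were lower without animal 3. Degradation genes went from 2 to 8 lower of 17. These counts rest on the same animal as those of Hspa5, Hyou1, Pdia4, Creld2 and Herpud1. The shares of all genes in this paragraph are of the fit with every animal. The count over all genes in the fit without animal 3 is given with the fold change of Hspa5. Animal 3 was left out after it was seen to be high in genes that varied with many of these. The rise in lower calls was thus set in part by that choice.

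Most targets of ATF4 and CHOP were not called with either cachexia tumour. With C26, 6 of 29 tested were higher (12.2% of all genes were) and 2 lower in hepatocyte nuclei (median 0.35). The lower count was 1 without C26 PBS animal 1 and 4 without C26 pre-cachexia animal 3. Ddit4, an inhibitor of mTORC1, was higher by 3.82 (adjusted p = 3.9e-05) and Chac1, a glutathione-degrading enzyme, by 2.85 (adjusted p = 0.00040), with Cth, Eif4ebp1, Wars and Slc7a5. The 2 lower were Psph and the hormone gene Fgf21, which is also on the CREBH list. With 8025, 9 of 29 were higher (16.2% of all genes were) and 0 lower (1 lower at an unadjusted p under 0.05; median 0.47), Chac1 by 2.50 (adjusted p = 0.00091) and Wars, a tRNA synthetase, by 0.88 (adjusted p = 0.0013) first, with Atf3, Atf5, Sesn2, Ddit4, Tnfrsf10b, Cebpb and Slc7a1. In pre-cachexia 2 were higher, Chac1 (2.20, adjusted p = 0.015) and Eif4ebp1 (0.83, adjusted p = 0.0495). In these comparisons Atf4 was not called, and Ddit3 was called lower with C26 cachexia and not called with 8025 or in pre-cachexia. Another list held 6 genes, for eIF2 alpha itself and for kinases and phosphatase subunits that act on it. Of these, Eif2ak4, the amino acid sensor GCN2, was higher with C26 (0.63, adjusted p = 0.0015) and Ppp1r15b lower (-0.56, adjusted p = 0.0043). Both were called in the same directions with 8025.

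The targets of CREBH that were called went in both directions, as did all genes (12.2% higher and 10% lower with C26, 16.2% and 13.1% with 8025). With C26, 2 of 14 were higher, the acute phase genes Apcs (3.89) and Crp (1.04), and 3 lower, Fgf21 and the clock genes Dbp and Nr1d1, with a list median of -0.45, or -0.26 without C26 PBS animal 1. With 8025, where Creb3l3 was not called, 4 were higher, Apcs (5.26), Crp (0.94), Pck1 and Apoa4, and 4 lower, Dbp, Nr1d1, Lpin1 and Ppara. Of 4 other genes of the Creb3 family, 0 were called with C26 (0 at an unadjusted p under 0.05), and Creb3l2 was higher with 8025 (1.14, adjusted p = 0.0053). With NC26 and MC38 tumours no gene of any of these lists was called by edgeR in hepatocyte nuclei.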

How the data were processed

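Nuclei were lysed directly in Trizol, and stranded libraries were made from total RNA with no poly-A selection and read as 50-base pairs, per the labels' protocols. The submitters' processing notes name mm10, STAR 2.4.2a and DESeq2 1.24.0. The authors deposited raw counts per gene, which per the file headers cover introns as well as exons. The use of strand is not given in the sources used here. The counts were tested with edgeR 4.0.16 in R 4.3.3 (filterByExpr by group, TMM scaling, quasi-likelihood F test, Benjamini-Hochberg adjustment over all genes of a fit, threshold 0.05). Each fraction was fitted over 36 libraries in 9 groups (13274 genes in hepatocyte and 13738 in whole liver nuclei), and comparisons of fractions over 72 libraries (14054 genes). Tumour groups were set against PBS animals of the same cohort. CPM use TMM-scaled totals, errors beside them are SD over animals, and intervals of log2 fold changes are 95% intervals of the fit. Deviations and correlations use log2 CPM with a prior count of 2. DESeq2 1.42.0, other scalings, no filter, replicate blocks, fits of the compared groups only and leaving out each animal were alternatives. The fit was tested on simulated data.

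Labels give each library an animal number: within a fraction, p-values measure the spread between animals. Both libraries of an animal share its liver (median correlation of deviations 0.61, range -0.22 to 0.85, 36 animals), so libraries of the 2 fractions are paired. Fits over both fractions used that pairing only where the animal block is named. Replicate numbers are shared by groups and were used only in the replicate block. Whether they pair animals was not settled. The named genes are all 10 members, for each list the 2 called genes with the smallest p in a cachexia comparison, and the 5 genes most like Creb3l3, Atf4 and Hspa5. Values per animal were due for genes called in cachexia, and those of other genes were chosen after they were seen. Members and lists were chosen with earlier results of these data known. The list counts without C26 PBS animal 1 or pre-cachexia animal 3 were added after seeing the data.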

Additional observations from a re-analysis of the deposited data

Results flagged for a closer look

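In groups of 4 animals, the highest or lowest value was set against the others by Dixon's ratio (critical value 0.829), which chance exceeds in about 1 in 20 groups. Of 180 groups of gene, fraction and condition, 20 exceeded it.

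C26 pre-cachexia animal 3 gave 9 of them. It was the highest of its group in Hspa5 (122 CPM in hepatocyte and 149 CPM in whole liver nuclei), Hyou1 (123 and 86.3 CPM), Pdia4 (122 and 117 CPM) and Creld2 (66.3 and 41.6 CPM), and in hepatocyte nuclei in Sdf2l1 (5.45 CPM). NC26 PBS animal 3 was the highest in Pdia4 (123 CPM in hepatocyte and 122 CPM in whole liver nuclei) and in Sdf2l1 in hepatocyte nuclei (2.02 CPM). MC38 tumour animal 2 was the highest in Xbp1 (155 and 131 CPM).

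The other 6 lay in 1 fraction each. Creb3l3 was high in the hepatocyte library of C26 PBS animal 1 (363 CPM) and low in the whole liver library of 8025 PBS animal 1 (106 CPM, the others at 145 to 150). Atf4 in hepatocyte nuclei was high in 8025 PBS animal 3 (45 CPM, the others at 29.9 to 30.3) and low in 8025 cachexia animal 3 (26.7 CPM, the others at 38.1 to 39.9). Ddit3 was high in the whole liver library of MC38 tumour animal 3 (24.1 CPM), and Sdf2l1 in the hepatocyte library of MC38 tumour animal 4 (1.92 CPM).

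The effect of C26 cachexia on Creb3l3 differed by contrast from the NC26 effect (-0.85 on the log2 scale) and from the 8025 effect (-0.65) in whole liver nuclei.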

How the results depend on the processing

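Of 3198 log2 fold changes of the 10 genes recomputed under alternatives, 3145 kept their call and, where called, their direction, 20 lost and 31 gained the call, and 2 turned. Uncalled differences changed sign 228 times. The 2 that turned were Creld2 in pre-cachexia against PBS without pre-cachexia animal 3, at -2.03 in hepatocyte and -1.68 in whole liver nuclei, where leaving out other animals gave up to 0.998 and 0.49. Counts of the 10 called moved as follows. Cachexia against pre-cachexia in hepatocyte nuclei went from 1 to 3 with DESeq2 and to 2 with the replicate block. Fits of the compared groups only gave 0 in place of 1 (Xbp1) for pre-cachexia in hepatocyte nuclei, 1 in place of 0 (Herpud1) for 8025 in each fraction, and 4 in place of 2 for strain in hepatocyte nuclei, where DESeq2 added Creld2 (adjusted p = 0.043) and the replicate block Ddit3 (0.038). The call of the C26 effect against the 8025 effect in whole liver nuclei went from 1 to 0 with no filter, with the replicate block and in the fit of compared groups only. The animal block gave 8 in place of 3 for the fractions of PBS animals, and without the filter Herpud1 was lost (0.35, adjusted p = 0.075), leaving 2. Leaving out 1 animal at a time gave 1 to 2 in hepatocyte nuclei for C26 cachexia, 0 to 5 for pre-cachexia and 1 to 3 for cachexia against pre-cachexia, and in whole liver nuclei 0 to 5, 1 to 2 (cachexia against pre-cachexia), 0 to 2 (8025) and 0 to 1 (C26 against 8025). The cause was not tested. No comparison had a correlation over 0.1 in every pair of animals with the same replicate number, which cannot exclude pairing. In C26 pre-cachexia against PBS these correlations were 0.07 to 0.40 in hepatocyte and 0.06 to 0.16 in whole liver nuclei. Every other comparison held a negative value.

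Over all genes, fits of the compared groups only called 1944 in place of 2953 (C26 cachexia), 339 in place of 1025 (pre-cachexia), 607 in place of 1206 (cachexia against pre-cachexia), 384 in place of 251 (C26 against NC26) and 47 in place of 127 (C26 against 8025) in hepatocyte nuclei. In whole liver nuclei they called 1061 in place of 1597 (cachexia against pre-cachexia), 2981 in place of 5026 (8025), 740 in place of 467 (C26 against NC26), 1124 in place of 1861 (8025 against MC38) and 515 in place of 902 (C26 against 8025). DESeq2 called 143 in place of 43 (NC26), 506 in place of 251 (C26 against NC26) and 355 in place of 127 (C26 against 8025) in hepatocyte nuclei and 199 in place of 100 (NC26) in whole liver nuclei. For the change with cachexia between fractions, the animal block called 62 in place of 0 (C26) and 190 in place of 6 (8025). Depth limits Sdf2l1 most, with 0 to 121 counts per library.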

Other observations

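Heat shock genes, which answer to unfolded proteins outside the ER, were lower in the C26 cohort. The list holds 9 tested genes of cytosolic chaperones and the mitochondrial chaperones Hspd1 and Hspe1. All 11 were lower in hepatocyte nuclei of cachexia animals (edgeR, list median -1.79; 10% of all genes were lower), and all 11 without C26 PBS animal 1. Hspa1b, an inducible HSP70, had a log2 fold change of -6.39 and Hspd1 of -1.23. In pre-cachexia 10 of 11 were lower (median -1.43; 2.94% of all genes), and in 8025 cachexia 3 of 11 (median -0.45; 13.1% of all genes). None was called by edgeR with NC26 or MC38 tumours. Between strains 9 of 11 were higher in whole liver nuclei of BALB/c PBS animals (18.2% of all genes).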
